A study of Mus musculus with 4 samples.

Results

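The genes described here encode the proteins of the cytosolic ribosome, measured cell by cell in 4 mouse medulloblastomas. They were chosen by name: every row of the tables that begins with Rpl or Rps and a number, together with Rplp0, Rplp1, Rplp2 and Rpsa, and without the S6 kinases (Rps6k) and the pseudogene rows (-ps). The rule found 84 of 15002 rows. Of these, 83 are ribosomal-protein genes or copies of one, 50 named for the large (60S) subunit and 33 for the small (40S) subunit. The other, Rps19bp1, encodes a protein that binds the product of Rps19 and is no part of the ribosome. Each of the 4 mice was untreated and was sampled at day 16 after birth (P16). Each carried hGFAP-Cre and SmoM2 and was homozygous for floxed alleles of both AMPK genes (Prkaa1fl/fl and Prkaa2fl/fl), so every value below is from this single group. hGFAP-Cre recombines in neural progenitors, the granule neuron progenitors of the cerebellum among them. SmoM2 is an activated Smoothened that switches on Sonic hedgehog (SHH) signalling, and Prkaa1 and Prkaa2 encode the catalytic subunits of the energy-sensing kinase AMPK. A comparison with tumours that kept Prkaa1 and Prkaa2 is the design's stated purpose and was not analysed here, because no labelled sample has that genotype. The labels' design text speaks of replicate mice, and the tumours are numbered 1 to 4 as in the labels.

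Ribosomal proteins assemble with ribosomal RNA in the nucleolus into the small subunit, which decodes the messenger RNA, and the large subunit, which joins amino acids. Growing and dividing cells make many ribosomes, and most ribosomal-protein genes are transcribed together in such cells. Their messenger RNAs begin with an uninterrupted tract of C and T, the 5′ terminal oligopyrimidine (TOP) tract, through which the growth-controlling kinase mTORC1 regulates their translation. AMPK restrains mTORC1. In the normal cerebellum, granule neuron progenitors divide under SHH and then leave the cell cycle, and the postmitotic neurons pass through early and late stages of maturation.

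The start of these genes is shown here because the tract is the sequence feature for which the family's messenger RNAs are known. RefSeq start sites (GRCm38.p6, the mm10 build that the submitters' processing notes name) were matched for 60 members. A run of at least 8 C or T letters on the gene's strand that included the annotated start base was present in 16 of them (26.7%), and in 1240 of 27025 genes of the same table (4.59%). A run that begins a few bases from the annotated start is not counted by this search, so no match says only that these letters did not cover the annotated base. Each window below runs from 10 bases before the start to 20 bases from it, 5′ to 3′ on the gene's strand, with the run in capitals. The first 6 are the members with such a run and the highest mean level among those that differed between dividing and late cells, and Rps6, the substrate that gave the S6 kinases their name, is added.
Rps9 (chr7:3704031-3704060, plus strand): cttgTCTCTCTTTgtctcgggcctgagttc
Rps24 (chr14:24490668-24490697, plus strand): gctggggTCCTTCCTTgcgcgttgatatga
Rps18 (chr17:33955646-33955675, minus strand): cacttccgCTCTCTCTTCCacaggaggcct
Rpl14 (chr9:120571507-120571536, plus strand): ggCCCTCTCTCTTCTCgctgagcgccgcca
Rplp2 (chr7:141447641-141447670, plus strand): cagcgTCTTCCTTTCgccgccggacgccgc
Rps15a (chr7:118116128-118116157, minus strand): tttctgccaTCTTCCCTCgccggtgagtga
Rps6 (chr4:86857348-86857377, minus strand): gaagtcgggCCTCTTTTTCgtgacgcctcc
The runs were 9 to 14 letters long in these members. Members with a run and members without one had similar changes in the comparison of dividing with late cells described below, with a median log2 fold of 0.855 over the 13 tested with a run and 0.94 over the 38 tested without.

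Messenger RNA was counted with Drop-seq, which captures single cells with barcoded beads and counts unique molecular identifiers (UMIs), about 1 per captured transcript, near the 3′ end. Barcodes with at least 500 UMIs numbered 766, 807, 566 and 1083 in tumours 1 to 4, with median depths of 749 to 972 UMIs. The libraries fell into pairs. Over 8803 genes outside the ribosomal-protein and mitochondrial rows, whole-tumour profiles of log2 levels had a Pearson r of 0.943 between tumours 1 and 2 and of 0.942 between tumours 3 and 4, and of 0.711 to 0.814 across the pairs. Tumours 1 and 2 had 12.1% and 12.7% of their UMIs from the mitochondrial genome, against 2.68% and 2.13% in tumours 3 and 4. The labels give no batch, so what sets the pairs apart is not known, and the comparisons of states below are given within the pairs as well, except for the gene lists at the end. Only 1 barcode sequence was shared by any tumours (2 and 4), and the doublet caller Scrublet marked 1 to 5 cells per tumour, which were kept. Prkaa1 had 3 to 16 UMIs per tumour and Prkaa2 5 to 14, in tags that can lie outside the deleted part of either gene, so these counts check nothing.

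Ribosomal-protein transcripts made up 1.92%, 2.37%, 5.004% and 5.52% of all UMIs in tumours 1 to 4, or 127459 UMIs in all. The members were counted very unevenly. Rps19 alone had 5869 UMIs, the 5 highest members held 19.3% of all ribosomal-protein UMIs and the 10 highest 34.07%, while 19 members had fewer than 200. Among the low members were Rpl3 (140 UMIs), Rpl5 (135), Rps6 (72) and Rpl36 (41), which encode core proteins of every ribosome. Each ribosome holds a single copy of almost every one of these proteins, so such counts do not follow the makeup of the particle. For 47 members the tables hold pseudogene rows as well, 136 rows in all, and the counting of reads that fit several copies is not given in the sources used here. Levels of different members are therefore not compared below, and each gene is compared with itself across states and tumours.

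Cells were placed in 5 states from marker genes that include no ribosomal-protein gene, counted per 1000 UMIs outside the ribosomal-protein and mitochondrial rows. G2/M-like cells had at least 15 UMIs of markers such as Top2a and Cenpf, and S-phase-like cells at least 8 of markers such as the Mcm replication genes. Non-dividing progenitor-like cells had fewer than 6 of either and at least 3 of SHH-responsive genes such as Gli1 and Ptch1. Early neuronal-like cells had at least 10 UMIs of markers such as Dcx and Tubb3 and fewer than 5 of the late list, and late neuronal-like cells had at least 5 UMIs of markers such as Grin2b and Snap25. The states held 847, 631, 232, 454 and 449 cells in that order, with 29 to 117 progenitor-like cells per tumour. The names rest on these markers alone, and moving all thresholds by 10% changed the assignment of 8.41% to 9% of cells.

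The share of ribosomal-protein UMIs was lowest in late neuronal-like cells in all 4 tumours. In tumours 1 to 4 it was 1.51%, 2.03%, 2.20% and 2.54% in late cells, a mean of 2.07% ± 0.429 (SD, n = 4). Non-dividing progenitor-like cells had 2.35%, 2.53%, 6.94% and 7.55% (mean 4.84% ± 2.78, SD, n = 4), the highest share of the 5 states in tumours 1, 3 and 4. S-phase-like cells followed with 2.18%, 2.71%, 5.97% and 6.46%, the highest state in tumour 2. G2/M-like cells had 1.79%, 2.26%, 5.05% and 5.36%, below S-phase-like cells in each tumour. Early neuronal-like cells had 2.10%, 2.26%, 3.93% and 4.14%, between progenitor-like and late cells in each tumour. The exact 95% binomial intervals drawn in the plot of shares cover counting error only. In tumour 1 the intervals of early neuronal-like cells (1.98 to 2.21%) overlapped those of S-phase-like (2.10 to 2.27%) and progenitor-like cells (2.17 to 2.54%), which overlapped each other. In tumour 2 the progenitor-like interval (2.34 to 2.73%) overlapped those of S-phase-like (2.63 to 2.803%) and early cells (2.15 to 2.37%), and the early interval that of G2/M-like cells (2.20 to 2.32%). Overlap of intervals does not show that these shares are equal, and their order in tumours 1 and 2 is less certain than in tumours 3 and 4, where no intervals of the 5 states overlapped.

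**Figure D1:**
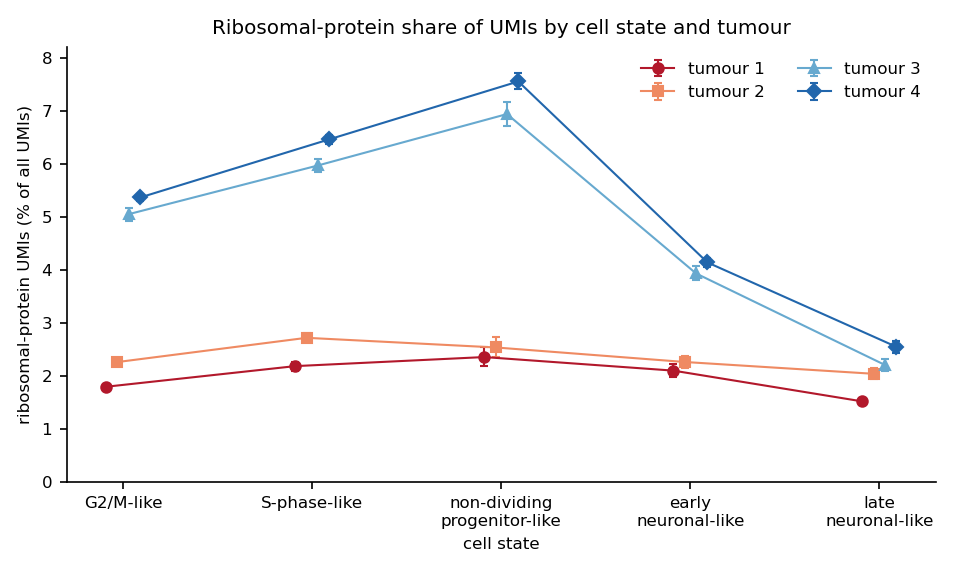
Share of UMIs from the 84 ribosomal-protein rows (vertical axis, percent of all UMIs) in each of 5 cell states (horizontal axis) in each of 4 tumours; bars are exact 95% binomial intervals and lines join values of 1 tumour. Late neuronal-like cells were lowest in every tumour, and the span between states was far wider in tumours 3 and 4 (2.20 to 7.55%) than in tumours 1 and 2 (1.51 to 2.71%).

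The size of the step from progenitor to late cells separated the pairs of tumours. The share in progenitor-like cells was 1.55 and 1.24 times that in late cells in tumours 1 and 2, and 3.15 and 2.97 times in tumours 3 and 4. For dividing cells (the mean of G2/M-like and S-phase-like) the ratios were 1.31, 1.22, 2.5 and 2.32. Late cells differed much less between tumours than the other states did. Genes of the large subunit gave 52.5% to 53.5% of ribosomal-protein UMIs on average in each state. Single values ran from 48.4% to 54.1% over the states of tumours 1 and 2 and from 54.0% to 56.8% over those of tumours 3 and 4, so the makeup by subunit also differed between the pairs. Cells between the states had 1.86%, 2.57%, 6.15% and 6.27% in tumours 1 to 4. Cells with markers of other cell types, 11 to 42 per tumour, had 2.56%, 2.17%, 3.19% and 4.28%.

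The order of states could also be read member by member. Among the 69 members that passed the filter on low counts (below), 44 and 53 had their highest level in progenitor-like cells in tumours 3 and 4, and 62 and 60 had their lowest in late cells. In tumours 1 and 2, 29 and 25 members were highest in progenitor-like cells, 21 and 30 in S-phase-like cells, and 34 and 22 were lowest in late cells. In tumour 2 another 23 members were lowest in progenitor-like cells (12 in tumour 1), so most members of tumour 2 did not repeat the order of the shares. The progenitor-like sums of tumours 1 and 2 held only 632 and 643 ribosomal-protein UMIs over all members. Such low counts can place a member highest or lowest there, and their part in the order was not tested. These counts rest on the same UMIs as the shares.

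Several other measures moved with the states or the pairs, and their part in the shares was not tested. Malat1, a nuclear RNA, made up 4.05%, 3.50%, 3.41% and 2.99% of UMIs in late cells and 2.63%, 1.90%, 1.87% and 1.53% in G2/M-like cells, the opposite order to the ribosomal-protein share. Median depth was 684 to 780.5 UMIs in late cells and 793.5 to 1281 in G2/M-like cells. Barcodes under 300 UMIs, which can hold free RNA or fragments, had ribosomal-protein shares of 3.47%, 5.003%, 4.26% and 4.34%, above every state of tumours 1 and 2 and between the states of tumours 3 and 4. Summed markers of astrocytes or radial glia (12 genes) were at 2.89 to 7.61 per 10000 UMIs in late, 3.32 to 11.03 in progenitor-like and 3.01 to 8.44 in G2/M-like cells, with tumours 1 and 2 the higher pair in every state. Summed markers of microglia or macrophages (14 genes) were at 0.16 to 2.6 per 10000 UMIs over all states, and were also higher in both of tumours 1 and 2 than in both of tumours 3 and 4 in each of the 5 states.

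Of the 5 members with the highest mean level, 4 are described here. Levels are given as CPM, UMIs scaled to 1000000 UMIs of a state's sum, and dividing cells are the mean of the G2/M-like and S-phase-like sums. Rps19 (chr7:24884592-24889811), mutated in Diamond-Blackfan anaemia, was at 339, 577, 1090 and 1147 CPM in late cells of tumours 1 to 4 and at 392, 572, 3289 and 3147 in dividing cells. The dividing level was thus close to the late level in tumours 1 and 2 and far above it in tumours 3 and 4. Rpl41 (chr10:128548110-128549168), which encodes the smallest ribosomal protein, was at 435, 462, 1171 and 1005 CPM in late cells and at 728, 715, 2873 and 2605 in dividing cells, higher in each tumour. Rpl22 (chr4:152324436-152334082) was at 409, 667, 545 and 992 CPM in late and 627, 705, 2243 and 2357 in dividing cells, a narrow step in tumour 2. Rps14 (chr18:60774596-60778546), a protein of the small-subunit platform whose loss marks the 5q- syndrome, was at 454, 603, 802 and 863 CPM in late and 515, 766, 1862 and 1992 in dividing cells. Apart from Rps19 in tumour 2, the dividing level of each of the 4 genes was above the late level of the same tumour, while the ranges of dividing and late cells over the 4 tumours overlapped for each of them.

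**Figure D2:**
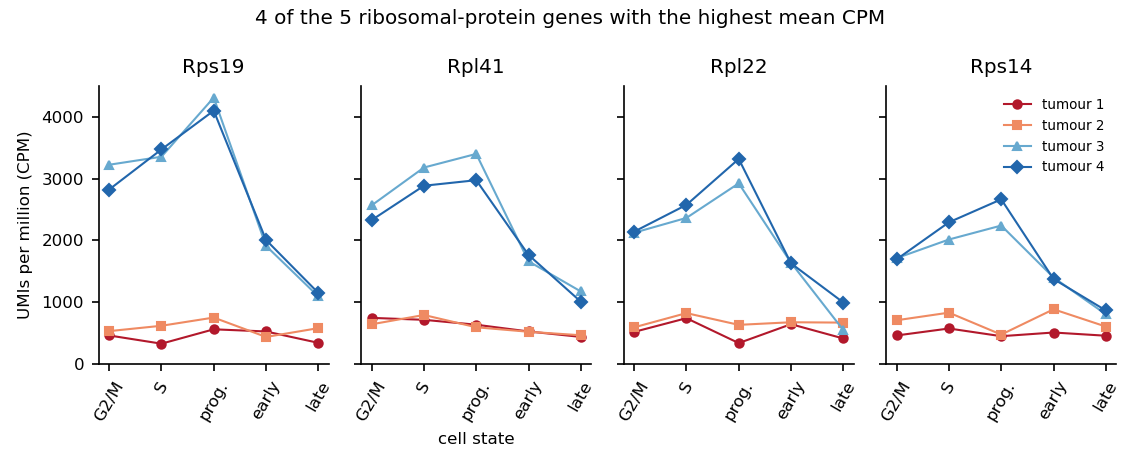
Level (CPM) of 4 of the 5 ribosomal-protein genes with the highest mean level, in G2/M-like, S-phase-like, non-dividing progenitor-like (prog.), early and late neuronal-like cells, 1 line per tumour. In tumours 3 and 4 each gene peaked in progenitor-like cells (4312 and 4100 CPM for Rps19), while the highest value of tumours 1 and 2 was 882 CPM, for Rps14 in early neuronal-like cells.

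Dividing cells had higher ribosomal-protein levels than late neuronal-like cells across the family. Of the 84 members, 69 passed the filter on low counts. The other 15, with 3 to 172 UMIs each and 1.04% of ribosomal-protein UMIs together, were not tested, Rps6 among them. In edgeR's quasi-likelihood test on UMI sums per tumour and state, with tumour as a block and Benjamini-Hochberg adjustment over all 4219 genes, 57 of the 69 were higher in dividing cells at an adjusted p under 0.05 and 0 were lower (0 lower in DESeq2 as well). The background is high: 21.1% of all genes tested were called higher in this comparison and 16.5% lower. The members' median log2 fold was 0.89, against 0.0835 over all genes, and their folds ran from -0.434 to 1.95. By subunit, 32 of 40 tested large-subunit and 25 of 28 small-subunit genes were higher, with medians of 0.902 and 0.869.

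The largest rises were those of Rps27a, Rpsa, Rpl22l1, Rpl19 and Rpl36a. Rps27a, which encodes ubiquitin fused to a small-subunit protein, had a log2 fold of 1.95 ± 0.586 (SE; edgeR adjusted p = 0.00539), but from 2, 0, 0 and 3 UMIs in late cells of tumours 1 to 4. It fell below the filter on low counts when tumour 2, 3 or 4 was left out. Rpsa, a small-subunit protein also known as the laminin receptor, was at 32.0, 64.1, 112 and 116 CPM in late cells and 109, 162, 442 and 328 in dividing cells. It rose in every tumour, by 1.67 ± 0.276 on the log2 scale (SE; edgeR adjusted p = 5.5e-07), and also in tumours 1 and 2 alone (1.52, adjusted p = 0.00848). Rpl22l1, the paralog that can take the place of Rpl22, was at 63.9, 103, 96.2 and 90.2 CPM in late and 113, 198, 292 and 348 in dividing cells (log2 fold 1.39 ± 0.263, SE; edgeR adjusted p = 1.05e-05). The lowest dividing value of Rpl22l1 was above its highest late value, but edgeR did not call it in tumours 1 and 2 alone (0.88, adjusted p = 0.0832). Nor was it called with at least 1000 UMIs per cell (log2 fold 1.09, edgeR adjusted p = 0.119) or with thinned sums (log2 fold 1, edgeR adjusted p = 0.0688). Rpl19 (1.30, adjusted p = 0.00103) was no longer called by edgeR without tumour 4 (0.99, adjusted p = 0.0564), nor was Rpl36a (1.25, adjusted p = 0.0147) without tumour 3 (0.947, adjusted p = 0.186). Late cells of tumours 1 to 4 held few UMIs of these genes as well. There were 5, 5, 7 and 9 of Rpsa and 10, 8, 6 and 7 of Rpl22l1. Rpl19 had 7, 4, 4 and 4, and Rpl36a 1, 1, 3 and 6.

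Genes for the proteins of the stalk, which recruits the elongation factors, moved like the family: Rplp0 by 0.825, Rplp1 by 0.966 and Rplp2 by 0.965 on the log2 scale, all called. The 5 highest members were called too, from 0.79 for Rps14 to 1.1 for Rpl41. Among other paralogs, Rpl36al rose by 1.13 (adjusted p = 0.000741), and Rps27l by 0.957 (adjusted p = 0.000897), which was not called by edgeR without tumour 4 (0.731, adjusted p = 0.0724). Rpl7l1, a paralog of Rpl7 with a place in ribosome assembly, did not pass the test (-0.03 ± 0.27, SE; edgeR adjusted p = 0.95), and its sign changed with the tumours used. Rps19bp1, the non-ribosomal member, had the lowest fold (-0.434 ± 0.342, SE; edgeR adjusted p = 0.332). Rpl24 also did not pass (-0.13, adjusted p = 0.784), with 1 to 17 UMIs per tumour in late cells.

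**Figure D3:**
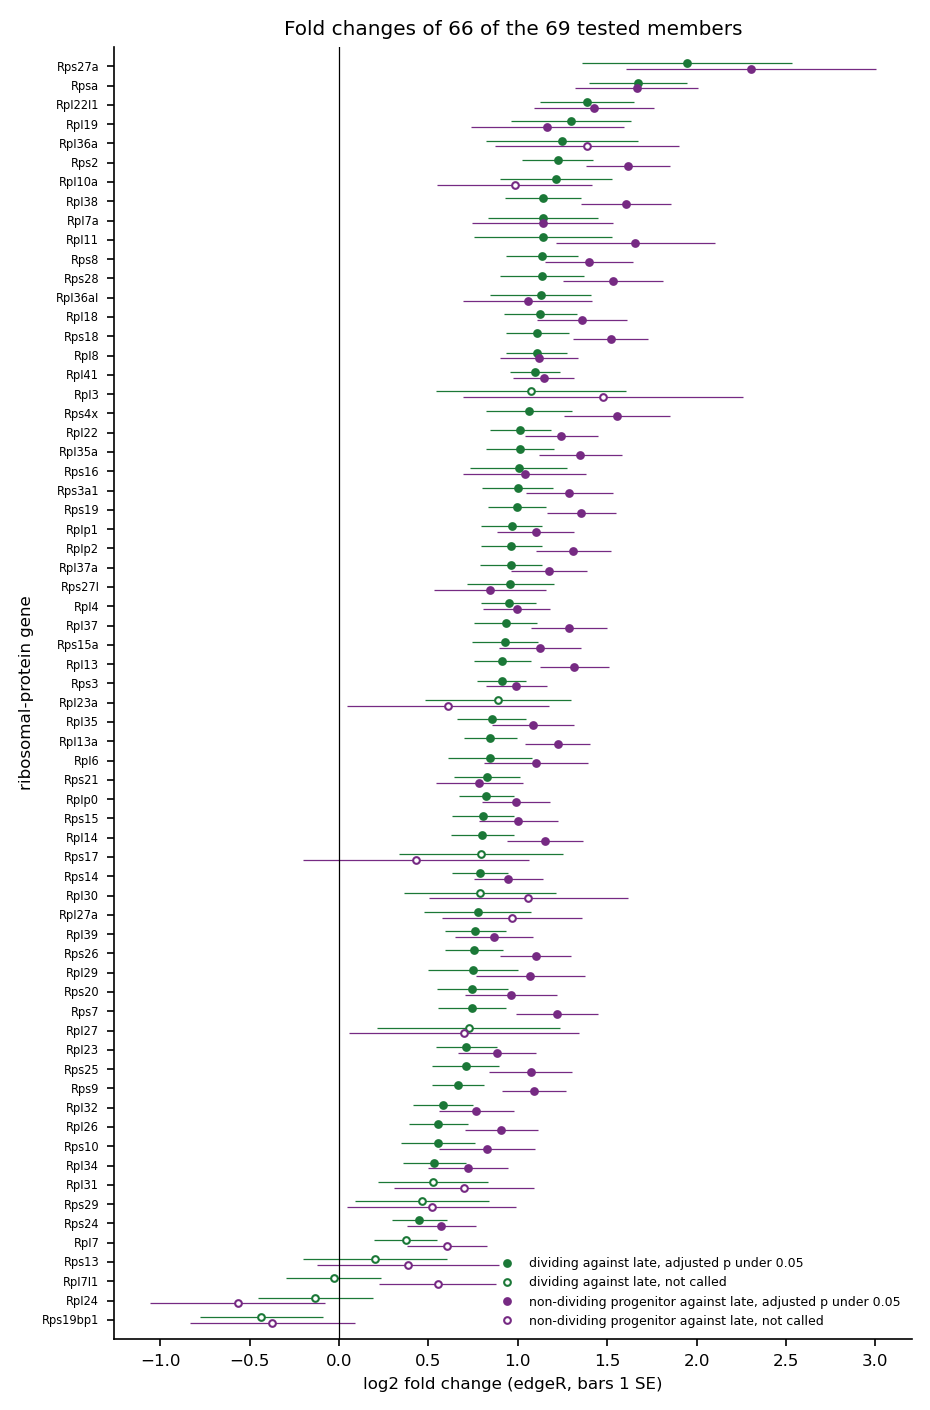
Log2 fold change of 66 of the 69 tested members (edgeR, bars 1 SE) in dividing cells (green) and non-dividing progenitor-like cells (purple) against late neuronal-like cells; filled points passed an adjusted p of 0.05 and open points did not. Most members lie between 0.5 and 1.5, with Rps27a and Rpsa highest and Rps19bp1, Rpl24 and Rpl7l1 at or below 0 for dividing cells.

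Within the pairs of tumours the comparison came out differently. In tumours 1 and 2 alone, edgeR called 9 of 56 tested members higher in dividing cells (background 12.1% higher), with a median log2 fold of 0.321. Among the 9 were Rpsa, Rpl10a, Rpl8, Rpl41, Rps3, Rpl4 and Rplp0. In tumours 3 and 4 alone it called 58 of 72 (background 17.5% higher), with a median of 1.28. In tumours 1 and 2 the members' count was thus near the background.

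Non-dividing progenitor-like cells were above late cells by about as much as dividing cells were. edgeR called 54 of 69 members higher and 0 lower, with 7.75% of all genes called higher and 8.91% lower. DESeq2 called 47 members higher and 0 lower. At an unadjusted edgeR p under 0.05 the members' count was 58, for which no share of all genes is given. The median log2 fold of the members was 1.09, against 0.00647 over all genes, and large- and small-subunit genes had medians of 1.1 and 1.09. The largest rises were those of Rps27a (2.31), Rpsa (1.67), Rpl11 (1.66), Rps2 (1.62) and Rpl38 (1.61). The value of Rps27a rests on the same few late UMIs as above. edgeR no longer called it in tumours 3 and 4 alone (2.15, adjusted p = 0.0515). The same held with a mitochondrial share of at most 10% and at least 200 genes per cell (2.12, edgeR adjusted p = 0.0557). Rps27a was not tested without tumour 2, 3 or 4. Rpl38, a large-subunit protein needed for the translation of Hox messenger RNAs in the embryo, was at 89.5, 64.1, 273 and 258 CPM in late cells of tumours 1 to 4. In progenitor-like cells it was at 372, 315, 892 and 739 CPM, a rise in every tumour (log2 fold 1.61 ± 0.252, SE, edgeR adjusted p = 6.43e-07). It was the only 1 of 56 tested members called in tumours 1 and 2 alone (2.03, edgeR adjusted p = 0.0111), beside 0.826% of all genes called higher. There Rpl38 rests on 10 and 8 UMIs in progenitor-like and 14 and 5 in late cells. In tumours 3 and 4 alone 54 of 72 members were called higher (background 8.27%). Rps2, a small-subunit protein beside the messenger RNA entry, was at 76.7, 359, 241 and 425 CPM in late and 37.2, 709, 1368 and 1530 in progenitor-like cells. It was higher in progenitor-like cells in tumours 2, 3 and 4, while tumour 1 had a single Rps2 UMI in these cells and gives no direction. Rpl11, which with Rpl5 binds Mdm2 and so links ribosome assembly to p53, had 0 UMIs in late cells of tumours 1 and 2. It had 1 and 0 UMIs in their progenitor-like cells, so these tumours give no direction. Rpl11 was not called by edgeR without tumour 4 (1.82, adjusted p = 0.0937). Rps14 (0.947, adjusted p = 0.000106) also lost its call without tumour 4 (0.60, adjusted p = 0.123). In tumours 1 and 2 its progenitor-like levels of 446 and 473 CPM lay below its late levels of 454 and 603 CPM. The log2 fold in these tumours alone was -0.295 (edgeR adjusted p = 0.744). Without tumour 4 the count of members called fell to 32 of 63, and that of all genes, in either direction, from 703 of 4219 to 308 of 2797.

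Early neuronal-like cells, which already carry neuronal markers, lay between. edgeR called 4 of 69 members higher than in late cells (background 0.593% higher), with a median log2 fold of 0.442 against 0.0188 over all genes, and 60 of 69 folds were above 0. They included Rps3 (0.76 ± 0.163, SE; edgeR adjusted p = 0.00183) and Rpl38 (0.989 ± 0.249, SE; edgeR adjusted p = 0.0149). Rps3, a small-subunit protein at the messenger RNA entry, was at 480, 603, 754 and 696 CPM in late and 793, 1051, 1266 and 1324 in early cells, so that every early value was above every late value. None of the 4 kept its edgeR call without tumour 4. There Rps3 had a log2 fold of 0.709 (edgeR adjusted p = 0.0616) and Rpl38 of 1.07 (edgeR adjusted p = 0.136), close to those with all tumours. Without tumour 3 the count was 1 and Rpl38 had a log2 fold of 0.894 (edgeR adjusted p = 0.285). With all tumours DESeq2 called 1 member. In tumours 3 and 4 alone 23 of 72 were called (background 1.38% higher), and in tumours 1 and 2 alone 0 of 56 (background 0.033% higher). Of these 56, 8 had an unadjusted p under 0.05 in either direction. That count cannot be set beside the background, which holds adjusted calls.

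Among dividing and progenitor-like cells the differences were smaller. G2/M-like cells had lower levels than S-phase-like cells for 64 of the 69 tested members, with a median log2 fold of -0.23 against -0.00628 over all genes. Beside a background of 1.45% called lower, only a single member of the 69 (1.45%) passed edgeR's test. This was Rps2, at 90.8, 344, 610 and 999 CPM in G2/M-like and 272, 669, 1105 and 1370 in S-phase-like cells, lower in G2/M in every tumour (log2 fold -0.76 ± 0.167, SE; edgeR adjusted p = 0.000645). It was also called in tumours 1 and 2 alone (-1.12), where 2 of 56 members were lower (background 0.628% lower), and in tumours 3 and 4 alone (-0.51), where 6 of 72 were (background 1.98% lower). Rps2 was not called by edgeR without tumour as a block (-0.712) or with thinned sums (-0.591, adjusted p = 0.394). Dividing against progenitor-like cells gave a median of -0.21, against 0.0606 over all genes, and with library size alone as the scaling -0.31 against -0.06, where edgeR called 9 members lower. With TMM scaling no member was called there by edgeR, nor any by DESeq2 (background of adjusted edgeR calls 6.49% in either direction). In that edgeR fit 18 members had an unadjusted p under 0.05, a count with no share of all genes beside it. In tumours 3 and 4 alone 16 of 72 members were called lower in dividing cells (background 1.76% lower), among them Rps18, Rpl37 and Rps9. In tumours 1 and 2 alone 0 of 56 were called (background 0.033% lower), with a median of -0.12. Of these 56, 5 had an unadjusted p under 0.05 in either direction, again with no share of all genes beside it.

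The contrast of dividing with late cells was larger in tumours 3 and 4 than in tumours 1 and 2. The difference between the pairs was itself tested, as an interaction in edgeR over 4764 genes. It was called for 20 of 71 tested members, all with the larger rise in tumours 3 and 4 (background 0.651% higher), and the members' median difference was 0.907 on the log2 scale against -0.05 over all genes. The pairs were formed from whole-tumour profiles and not from labels, so the test describes these 4 libraries. Rps28, a small-subunit protein near the messenger RNA exit, shows the pattern: it was at 153.5, 167, 208.5 and 271 CPM in late cells and at 139, 168, 988 and 818 in dividing cells (difference of log2 folds 1.89 ± 0.411, SE; edgeR adjusted p = 0.00194). Its late values lay close together, and its dividing values were as low as the late ones in tumours 1 and 2 only. Rpl32 was at 448, 833, 561 and 709 CPM in late and 463, 635, 1423 and 1716 in dividing cells (difference 1.48, adjusted p = 1.01e-05).

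Other members reached the same difference in another way. Rps21, a small-subunit protein, was at 595, 474, 96.2 and 232 CPM in late and 695, 572, 532 and 667 in dividing cells. Dividing cells of the pairs thus overlapped for Rps21, and it was the late cells of tumours 3 and 4 that were low. Rps20 followed the same course, with 275, 487, 112 and 155 CPM in late and 368, 447, 415 and 532 in dividing cells. Rpl27a, with the largest difference among the members called (2.70 ± 0.668, SE; edgeR adjusted p = 0.0112), was at 115, 128, 32.1 and 38.7 CPM in late and 107, 103, 225 and 193 in dividing cells, and its late levels in tumours 3 and 4 rest on 2 and 3 UMIs. Of the 20 members, 2 (Rpl32 and Rps19) stayed called with each tumour left out in turn. The others each lost the call without at least 1 tumour, and 11 of 76, 16 of 76, 7 of 73 and 13 of 70 members were called without tumours 1, 2, 3 and 4. Of all genes in those fits 47 of 5471, 33 of 5592, 20 of 5354 and 24 of 4254 were called, in either direction.

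**Figure D4:**
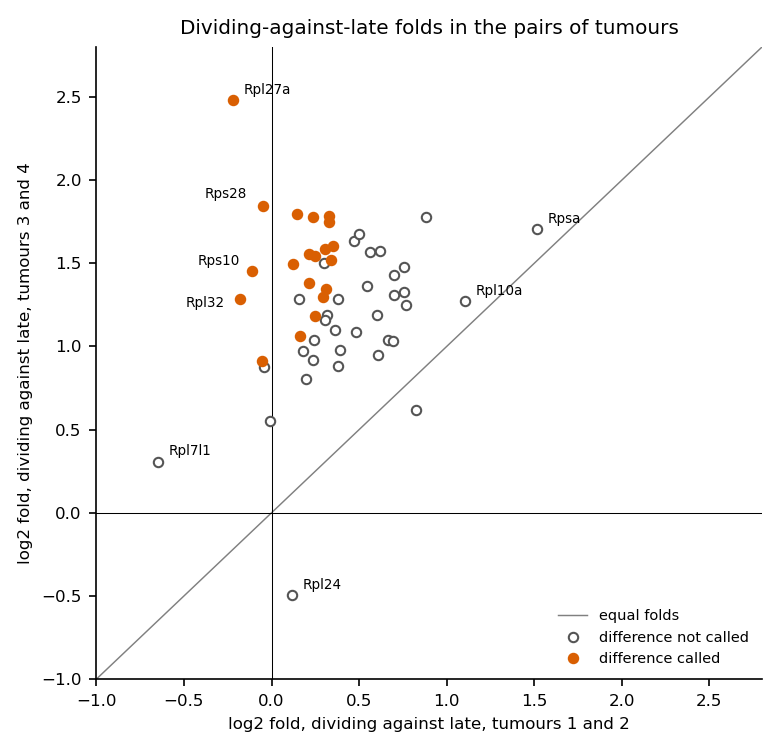
Log2 fold of dividing against late cells for the 55 members tested in both pairs, in tumours 1 and 2 alone (horizontal axis) and in tumours 3 and 4 alone (vertical axis); orange points are the 20 members called for the difference, open points the rest, and the line marks equal folds. Of the 55 points, 53 lie above the line, with Rpl27a farthest from it, and Rpl24 and Rpl30 lie below it.

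The members also differed among themselves in how far whole tumours of the pairs stood apart. Over all barcodes with at least 500 UMIs, and for the 65 members with at least 200 UMIs, mean CPM in tumours 3 and 4 was a median of 2.67 times that in tumours 1 and 2, with a range from 0.766 to 13.7. Among 3463 other genes with as many UMIs the median was 1.1 and the 5th to 95th percentile 0.396 to 3.6. Both of tumours 3 and 4 were above both of tumours 1 and 2 for 57 of the 65 members and below them for 0. For all genes with as many UMIs these shares were 46.7% above and 35.2% below, because the pairs differ throughout the transcriptome. The values named next were chosen after they were seen. Rpl11 was at 15.7, 13.8, 198 and 206 CPM in tumours 1 to 4, and Rpl35 at 94.0, 71.9, 1148 and 912. Rps21 went the other way, at 726, 582, 414 and 588 CPM, with overlapping pairs. Rps20, Rps10 and Rps26 had ratios of 1.07, 1.1 and 1.11. Below the minimum of 200 UMIs, Rpl3 had 62 and 71 UMIs in tumours 1 and 2 and 3 and 4 UMIs in tumours 3 and 4. Transcripts of proteins that enter the ribosome in equal number were thus counted in different proportions in the pairs, and no protein was measured. Pseudogene rows of the family also differed, with 0.114% and 0.116% of UMIs in tumours 1 and 2 and 0.478% and 0.292% in tumours 3 and 4, and their part in the ratios was not tested. Within a pair the proportions were alike: the log2 share of each of the 69 tested members in all ribosomal-protein UMIs had a Pearson r of 0.951 between tumours 1 and 2 and 0.987 between 3 and 4, and of 0.743 to 0.801 across the pairs.

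**Figure D5:**
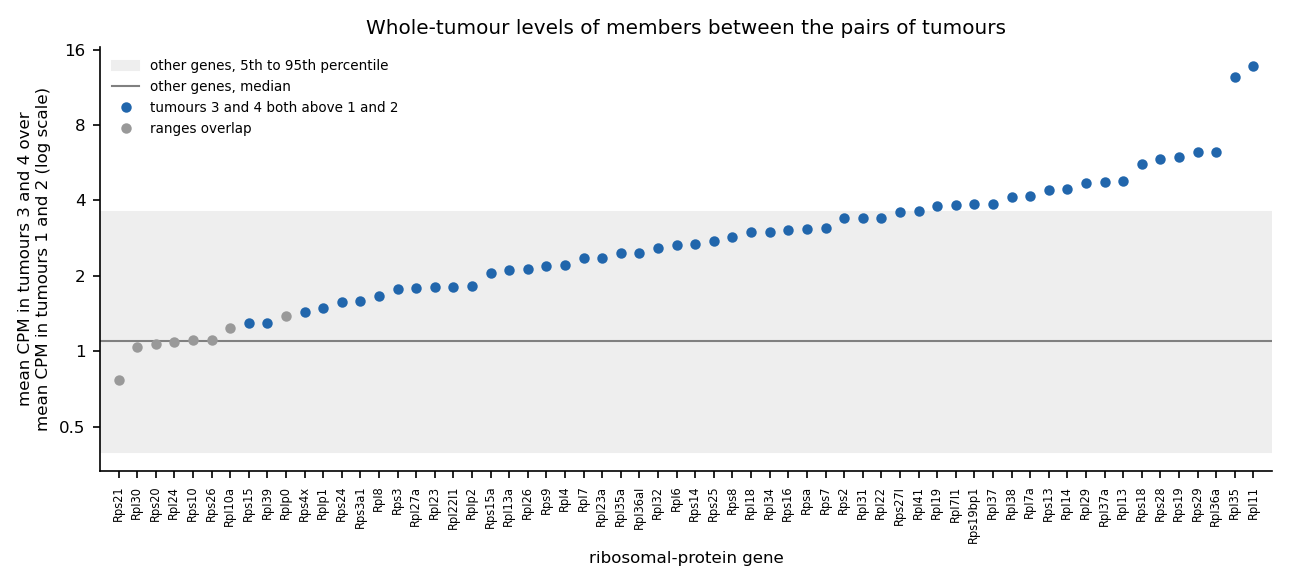
Ratio of mean CPM in tumours 3 and 4 to mean CPM in tumours 1 and 2 (log scale) for 62 of the 65 members with at least 200 UMIs, in order of the ratio; blue points are members whose values in both of tumours 3 and 4 were above both of tumours 1 and 2, the grey line is the median of other genes and the band their 5th to 95th percentile. The ratios run from 0.766 for Rps21 to 13.7 for Rpl11, against a median of 1.1 for other genes.

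Genes that make ribosomes, or share the family's regulation, were read from fixed lists in the same fits over all 4 tumours. Their counts stand beside 21.1% of all genes tested called higher in dividing against late cells (median log2 fold 0.0835) and 7.75% in progenitor-like against late cells (median 0.00647). Of 3 ribosome components whose names fall outside the rule, 2 were higher in dividing than in late cells. Gnb2l1, the scaffold of the small subunit now called Rack1, rose by 0.878 (adjusted p = 4.31e-05), and Fau, which encodes a small-subunit protein fused to a ubiquitin-like one, did not pass (0.73, adjusted p = 0.069). Of the ribosome biogenesis list, 22 of 30 genes were tested and 14 were higher in dividing cells, 0 lower, with a median log2 fold of 0.898. They included nucleolin (Ncl, 0.995), nucleophosmin (Npm1, 1.12), the small nucleolar ribonucleoprotein genes Nop56 (1.40), Nop58 (1.52) and Dkc1 (1.67), and Rrs1 (1.77). In progenitor-like against late cells 11 of the 22 were higher, with a median of 0.70. Of 14 other genes whose transcripts carry a TOP tract, 7 were higher in dividing cells (median 0.623) and 7 in progenitor-like cells (median 0.861). These were the elongation factor genes Eef1a1, Eef1b2 and Eef1g, with Eif3e, the poly(A)-binding protein gene Pabpc1, Hnrnpa1 and Naca, called in both comparisons.

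Ribosomal proteins of the mitochondrion, which are encoded by other genes and lack a TOP tract, were read in the same way. Of 80 such genes 51 were tested, and 11 were higher in dividing and 4 in progenitor-like cells, 0 lower, with medians of 0.441 and 0.428. Both counts were near the share of all genes called higher (21.1% and 7.75%), so they show nothing about this list, and the difference from the cytosolic family was not tested. Of 9 regulators of ribosomal-protein synthesis, 3 were tested, and 2 were higher in dividing than in late cells (21.1% of all genes called higher). Rps6kb1, an S6 kinase gene, did not pass (0.405, edgeR adjusted p = 0.134). Mycn, a transcription factor that drives ribosome production, rose by 1.35 ± 0.224 in dividing against late cells (SE; edgeR adjusted p = 6.37e-07), and it is also 1 of the markers that define progenitor-like cells. Eif4ebp1, which encodes the translation repressor that mTORC1 inactivates, had 102 UMIs in dividing cells (61.7 CPM) and 0 of 374365 UMIs in late cells, which at a limit of 3 counts over the group is at least 7.7-fold higher. Between G2/M-like and S-phase-like cells the nucleolar genes Nhp2 (-0.70) and Gnl3 (-0.81) were lower in G2/M, where 1.45% of all genes were called lower.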

How the data were processed

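Drop-seq libraries of 4 tumours were analysed from UMI counts per gene and barcode that the authors deposited as whole-number counts. The submitters' processing notes name STAR and mm10, without versions. The counting software, the annotation and any barcode filter are not given in the sources used here. Another 6 tables, with 11203 cell columns whose names match no sample's labels, were not used.

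Barcodes with at least 500 UMIs were kept, and no doublets were removed. States were set from marker UMIs per 1000 UMIs outside ribosomal-protein and mitochondrial rows, with thresholds chosen after the marker distributions were seen: G2/M 15, S phase 8, progenitor 3, early 10 and late 5. Cells with markers of another cell type were set aside. Counts were summed per tumour and state, and fitted with edgeR 4.0.16 (TMM scaling, filterByExpr, quasi-likelihood test, tumour as a block, all 5 states in 1 fit; R 4.3.3), with Benjamini-Hochberg adjustment over all genes tested and a threshold of 0.05. SE is the log2 fold over the square root of F. The sums of a tumour come from 1 animal, and their deviations from the state means had mean correlations of 0.414 to 0.6 within a tumour. With tumour as a block, level differences between tumours are taken out. The p-values then set differences between states against how these vary from tumour to tumour, over 4 tumours of 1 group.

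Total depth was 528971 to 1253618 UMIs per tumour, and 25390 to 379471 per summed state. On simulated counts over 3542 genes for dividing against late cells, the fit recovered 82% of 2-fold rises and 100% of 4-fold rises, with 4.19% false calls. The simulation changed 200 genes by the same fold in every state but the late one, and held no difference between pairs of tumours. These rates therefore do not carry over to the real counts, in which the pairs differ. Alternatives were other cell filters, Leiden clusters (scanpy 1.11.5, leidenalg 0.10.2), stricter thresholds, other scaling, no count filter, DESeq2 1.42.0, no block, each tumour left out and each pair alone, with thinned sums, scaling outside ribosomal-protein rows and share ratios added after the data were seen. The members, the gene lists and the pairs of tumours were chosen with earlier results of these data known. Genes are named by these rules: the 5 highest members by mean CPM, the 5 largest called changes in each direction per comparison, all members called for the difference between pairs, and paralogs. Named list genes are those called, and others named outside these rules were chosen after their values were seen. A few genes are not reported here by name, though they stay in the counts, medians and shares.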

Additional observations from a re-analysis of the deposited data

Results flagged for a closer look

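The rise from late to dividing cells differed between the pairs of tumours in 20 of 71 members tested, by edgeR's interaction test with adjustment over 4764 genes (0.651% of all genes called higher). Only Rpl32 and Rps19 kept the call with each tumour left out in turn. Each value here is the log2 fold in tumours 3 and 4 minus that in tumours 1 and 2. In the small subunit the differences were 1.89 for Rps28, 1.65 for Rps20, 1.57 for Rps10, 1.55 for Rps21, 1.46 for Rps3a1, 1.38 for Rps19, 1.34 for Rps26 and 1.30 for Rps15a. The other small-subunit members were Rps15 at 1.04, Rps24 at 0.98, Rps14 at 0.945 and Rps9 at 0.907. In the large subunit they were 2.70 for Rpl27a, 1.48 for Rpl32, 1.26 for Rpl35a, 1.19 for Rpl22, 1.18 for Rpl39 and 1.02 for Rpl13a, and in the stalk 1.43 for Rplp1 and 1.29 for Rplp2. All 20 lay in the same direction. The mitochondrial share moved with the same pairs (12.1% and 12.7% against 2.68% and 2.13%), and its part in the difference was not tested.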

How the results depend on the processing

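Mean shares ran from 2.02 to 5.2% (G2/M), 2.45 to 6.21% (S phase), 2.18 to 4.03% (early) and 1.70 to 2.37% (late) over the 15 alternatives, and those of progenitor-like cells from 2.44% (tumours 1 and 2 alone) to 7.53% (stricter thresholds, 2 tumours); the SD over tumours spans the gap between the pairs and is no measure of stability. No member was called lower than in late cells in any fit. The ratio of progenitor-like to late shares became 3.56 with at least 1000 UMIs per cell (1 tumour) and 3.54 with stricter state thresholds (2 tumours), and that of early to late 2.01 with at least 1000 UMIs (1 tumour). Without the replicate block, members called fell from 57 to 8 (dividing against late), 54 to 4 (progenitor-like), 4 to 0 (early) and 1 to 0 (G2/M against S). All genes called without the block numbered 692, 196, 4 and 58 of 3812, and members tested 66, so the members' share of calls for dividing against late was below that of all genes there, while the members' median log2 folds were 0.987, 1.22, 0.581 and -0.23 (with the block 0.89, 1.09, 0.442 and -0.23). In tumours 1 and 2 alone the counts were 9, 1, 0 and 2 of 56 (746, 119, 13 and 117 of 3027 genes), and in tumours 3 and 4 alone early cells had 23, G2/M against S 6 and dividing against progenitor-like 16 of 72 (119, 250 and 290 of 4137 genes). With thinned sums they were 33 (dividing), 1 (early), 0 (G2/M against S), 4 (dividing against progenitor-like) and 2 (difference between pairs), of 48 members tested (49 for the last), with 337, 20, 40 and 84 of 853 genes and 9 of 1027 called in all. With a mitochondrial share of at most 10%, counts were 9 (early), 2 (G2/M against S) and 7 (dividing against progenitor-like) of 67 members, and 70, 216 and 203 of 4062 genes. At least 1000 UMIs gave 0 and 2 of 68 for the first 2 of these (9 and 182 of 3958 genes), and stricter thresholds 0, 2 and 1 of 64 (18, 243 and 120 of 3336 genes). Leiden clusters gave 9 (early) and 8 (dividing against progenitor-like) of 71 (205 and 324 of 4412 genes), and DESeq2 1 of 69 (early; 52 of 4219 genes). Dividing against progenitor-like had 1 with RLE scaling, 3 with upper-quartile scaling, 9 with library size alone and 1 with scaling factors outside ribosomal-protein rows, of 69 members and beside 260 to 266 of 4219 genes, and these scalings moved the median of all genes from 0.0606 to between -0.06 and 0.01. Leaving out 1 tumour gave 42 to 57 (dividing), 32 to 54 (progenitor-like), 0 to 7 (early), 1 to 2 (G2/M against S), 0 to 3 (dividing against progenitor-like) and 7 to 16 (difference between pairs), of 63 to 68 members tested (70 to 76 for the last). All genes called in these fits ran from 920 of 2797 to 1472 of 3948, 308 of 2797 to 676 of 3948, 25 of 3792 to 72 of 3948, 107 of 2797 to 186 of 3948, 113 of 2797 to 239 of 3948 and 20 of 5354 to 47 of 5471 in the same order. Rpl7l1 in dividing against late cells changed sign from -0.0284 to 0.0484 (mitochondrial limit), 0.299 (Leiden), 0.147 (stricter), 0.107 (no filter), 0.0883 (no replicate block), 0.307 (tumours 3 and 4) and, with 1 tumour left out, to between -0.442 (without tumour 4) and 0.163 (without tumour 1), with 0.0221 without tumour 3. In progenitor-like against late cells, tumours 1 and 2 alone gave -0.197 for Rpl22, -0.295 for Rps14 and -0.454 for Rpl36al, which ran from -0.0242 (without tumour 4) to 1.27 (without tumour 3) with 1 tumour left out, and Leiden clusters gave 0.0259 for Rps19bp1. Fewer samples or UMIs enter the fits with pairs, left-out tumours and thinned sums; for the other changes the cause was not tested. Members with few UMIs in late cells, such as Rps27a and Rpl27a, are limited by depth.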
